A study of Mus musculus with 6 samples.

Results

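The Cyp2a and Cyp2b cytochromes P450 examined here are Cyp2a4, Cyp2a5, Cyp2a12, Cyp2b9, Cyp2b10 and Cyp2b13. They were read from all 11 probes that the platform annotation assigns to these 6 genes, of 45281 probes for 19057 named genes in all. Liver tumours, 1 from each of 3 C57BL/6J mice, were set against the liver beside each tumour, on 6 Illumina bead arrays with 3 arrays per group. All animals, and so both groups, had received 3e+10 particles of the adeno-associated virus vector AAV-Rian-CMV into a vein on the day after birth, and tissue was taken at 6 months. Liver from uninjected mice was not analysed here, so the liver beside a tumour stands for liver that had met the same vector. The animals are numbered 1293, 1309 and 1316 in the sample titles, which pair each tumour with its own adjacent liver. For 1 tumour, titled 1316, another label gives the animal as 1306. That tumour stood furthest from its adjacent liver, with 584 of all genes lower by more than 1 log2 unit, against 196 in animal 1293 and 14 in 1309.

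Cytochromes P450 are haem enzymes of the endoplasmic reticulum that oxidise drugs, steroids and plant toxins. The nuclear receptor CAR, encoded by Nr1i3, switches on Cyp2b genes when phenobarbital-like compounds reach the mouse liver, and Cyp2b10 is its best known target. Cyp2a5 also answers to the oxidant sensor NRF2 and to liver injury. Cyp2a4, Cyp2b9 and Cyp2b13 are known for higher levels in female than in male mouse liver, a difference set by the rhythm of growth hormone release. The genes lie together on chromosome 7, over 1139 kb from 25897658 to 27036818 in build GRCm38.p6, within a run of 17 Cyp2 genes of which 4 are pseudogenes.

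Several of these genes are recent copies of each other, which matters for what a probe can tell apart. The sequences at their start sites show how alike they are. RefSeq promoters of build GRCm38.p6 were found for all 6 genes. A window of 250 bases, taken as upstream of the start, was aligned for each. The Cyp2a4 window (chr7:26306942-26307191) and the Cyp2a5 window (chr7:26835089-26835338) share 245 bases or 97.6% of the aligned columns, with 4 mismatches and 1 unmatched base at each end. Both are on the plus strand and are printed 5′ to 3′, with capitals for the bases that differ.
Cyp2a4: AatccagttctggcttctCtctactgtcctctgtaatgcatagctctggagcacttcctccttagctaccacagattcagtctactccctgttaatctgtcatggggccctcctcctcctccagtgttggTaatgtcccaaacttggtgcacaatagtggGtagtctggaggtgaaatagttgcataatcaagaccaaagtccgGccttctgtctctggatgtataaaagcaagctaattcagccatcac
Cyp2a5: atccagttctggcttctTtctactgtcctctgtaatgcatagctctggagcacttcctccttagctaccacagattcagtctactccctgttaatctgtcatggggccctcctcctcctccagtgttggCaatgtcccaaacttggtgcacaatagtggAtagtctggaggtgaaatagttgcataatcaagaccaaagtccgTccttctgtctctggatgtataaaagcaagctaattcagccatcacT
Cyp2b9 and Cyp2b13 are closer still. The Cyp2b9 window (chr7:26173159-26173408) and the Cyp2b13 window (chr7:26061245-26061494), both on the plus strand, share 248 of 250 bases, or 99.2%. Each of these windows runs past the gene's start, which lies at 26173350 for Cyp2b9 and at 26061388 for Cyp2b13. Part of each window is thus inside the gene. The 2 bases that differ are in capitals.
Cyp2b9: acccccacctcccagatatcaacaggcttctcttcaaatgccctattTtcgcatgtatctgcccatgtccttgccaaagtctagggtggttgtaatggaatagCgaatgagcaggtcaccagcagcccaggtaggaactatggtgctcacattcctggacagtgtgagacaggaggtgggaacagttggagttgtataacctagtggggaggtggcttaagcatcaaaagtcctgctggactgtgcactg
Cyp2b13: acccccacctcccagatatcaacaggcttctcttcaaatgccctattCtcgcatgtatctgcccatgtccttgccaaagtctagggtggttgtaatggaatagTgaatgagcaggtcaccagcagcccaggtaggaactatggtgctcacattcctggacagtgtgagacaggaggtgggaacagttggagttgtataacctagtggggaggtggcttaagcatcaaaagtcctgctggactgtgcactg
The hexamer TATAAA, searched on both strands, stood in the windows of Cyp2a4, Cyp2a5 and Cyp2a12 and in none of Cyp2b9, Cyp2b10 and Cyp2b13. It is present in 12.4% of all 32851 promoters of this length. A STAT5 motif (TTCNNNGAA, in 7.02% of all promoters), the core of the antioxidant response element (TGACNNNGC, 10.2%) and a nuclear receptor hexamer, AGTTCA (11.8%), had no match in any of the 6 windows. At these shares a window without a match is the usual case. Sequence outside the windows was not searched, so elements lying elsewhere would have been missed. The letters of the array's own probes were not used here, so which relatives a probe can also bind was not tested.

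Of the 11 probes, 9 were higher in tumours and 0 were lower at an adjusted p under 0.05 (limma over all 45281 probes), against 2.30% of all probes called higher and 1.15% called lower. In numbers, 1040 probes were called higher and 520 lower over the whole table, and 1138 higher and 227 lower with median scaling. The Cyp2a12 probe was lower in tumours at an unadjusted p under 0.05 but did not pass. The called probes belong to 4 of the 6 genes, namely Cyp2a4, Cyp2a5, Cyp2b10 and Cyp2b13. Since 5 of the 9 read Cyp2a5 and 2 read Cyp2b10, they are not 9 separate observations. On 10 of the 11 probes all 3 tumours lay above all 3 adjacent livers, a pattern that 9.20% of all probes show; the opposite pattern was found on 0 of the 11 and on 9.73% of all probes. Levels are given as log2 of the background-corrected and normalized signal, and a probe counts as above background where its raw signal exceeds a level estimated for each array. By that measure 8 of the 11 probes were above background on all 6 arrays, and 3 were below it on all adjacent arrays. In bulk tissue, a change in RNA per cell and a change in the share of cells that carry it cannot be told apart.

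**Figure D1:**
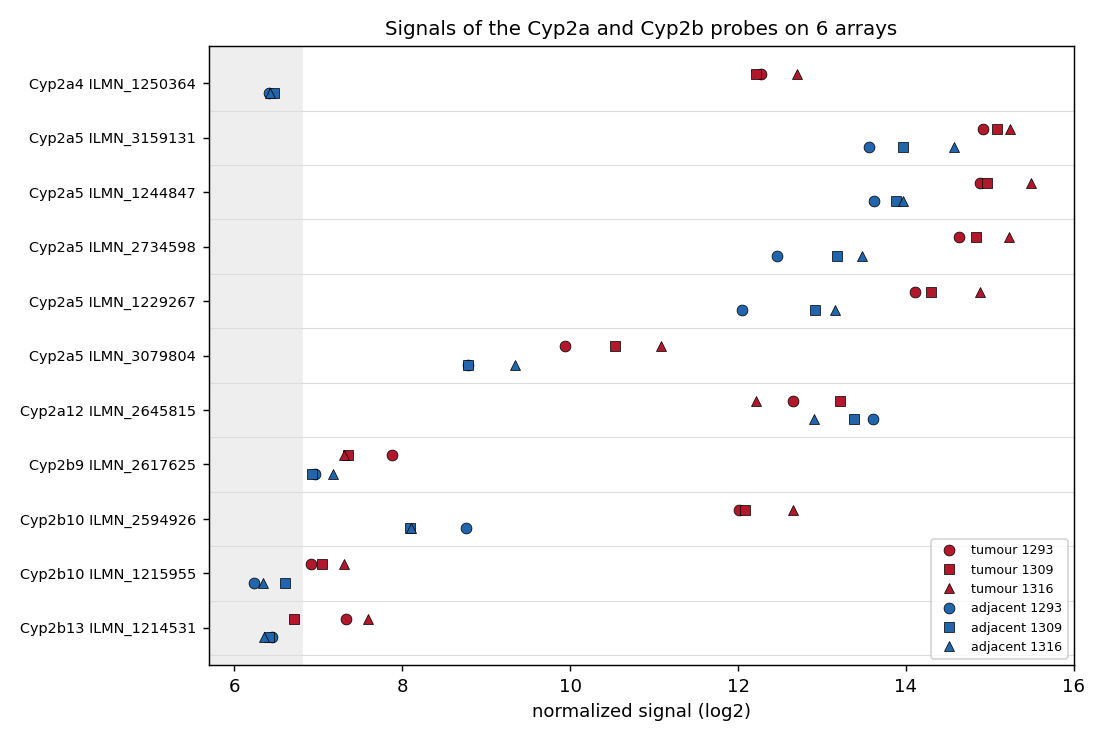
Normalized signal (log2, horizontal axis) of the 11 probes on the 6 arrays, with tumours in red above adjacent livers in blue and a symbol for each animal. The shaded band marks signals below 6.81, the lowest normalized signal that counted as above background on any array; the Cyp2a4 probe lies in the band in all adjacent livers and above 12 in all tumours.

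Cyp2a4, a steroid hydroxylase of female-biased expression, showed the widest difference among the 6 genes. Its single probe read 12.27, 12.21 and 12.70 in the tumours of animals 1293, 1309 and 1316, against 6.41, 6.47 and 6.43 in their adjacent livers. In raw units these were 4423, 5123 and 7545 in tumours and 144.7, 156.4 and 156.2 in adjacent liver, where the gene was not above background on any array. The groups are far apart, and the tumours vary more (SD 0.27, n = 3) than the adjacent livers (SD 0.03, n = 3), whose readings are those of a probe with no signal above background. Tumours were at least 45.0-fold higher, the bound being the tumours' mean against the lowest signal above background in adjacent liver. The fitted log2 difference was 5.96 (SE 0.15, adjusted p = 5.27e-10, limma). The size of the fitted difference depends on the background correction, being 5.17 without it and 6.67 with an offset of 16. The difference was 5.86, 5.74 and 6.27 in animals 1293, 1309 and 1316.

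Cyp2a5 encodes the mouse coumarin hydroxylase, which also oxidises nicotine, and is the near-identical relative of Cyp2a4. It differs from Cyp2a4 here in that it was already bright in adjacent liver. The probe of highest mean signal, ILMN_3159131, read 14.91, 15.09 and 15.24 in tumours of animals 1293, 1309 and 1316, against 13.56, 13.96 and 14.58 in adjacent liver, a log2 difference of 1.05 (SE 0.21, adjusted p = 0.0190, limma). Probe ILMN_2734598 read 14.63, 14.83 and 15.23 in tumours and 12.46, 13.18 and 13.47 in adjacent liver, a difference of 1.86 (SE 0.23, adjusted p = 0.000807). On both probes every tumour lay above every adjacent liver. The other probes gave 1.29 (ILMN_1244847, SE 0.17), 1.72 (ILMN_1229267, SE 0.26) and 1.54 (ILMN_3079804, SE 0.25). The estimates of the 5 probes assigned to Cyp2a5 thus ran from 1.05 to 1.86, or 2.07-fold to 3.62-fold. Whether these probes also bind RNA of Cyp2a4, which was higher in the same tumours, was not tested.

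The 5 Cyp2a5 probes ranked the animals alike. The tumour of 1316 was the highest tumour and that of 1293 the lowest on all 5, and likewise the adjacent liver of 1316 was the highest and that of 1293 the lowest of the adjacent livers on all 5. Differences within an animal, by contrast, had no shared order over the probes: that of animal 1316 was the smallest of the 3 on ILMN_3159131 (0.66) and the largest on ILMN_1244847 (1.52). The bright probes ran close to the top of the scale. In tumours ILMN_3159131 reached 57.2% to 75.6% of the highest raw signal on the array and ILMN_1244847 reached 55.8% to 84.6%, against 21.1% to 48.8% and 22.1% to 32.3% in adjacent liver. The dim probe ILMN_3079804 was at 2.03% to 4.81% in tumours and 0.817% to 1.40% in adjacent liver, and its difference of 1.54 lay within the range of the other 4; whether signals near the top are compressed was not tested. The call of ILMN_3159131 was lost without the tumour of 1293 (1.13, adjusted p = 0.0617), the tumour of 1316 (0.97, adjusted p = 0.0573), the adjacent liver of 1293 (0.81, adjusted p = 0.0525) or that of 1309 (1.01, adjusted p = 0.0798). The probes ILMN_1244847, ILMN_2734598 and ILMN_3079804 passed under all 16 alternatives run for them, and ILMN_1229267 under 15.

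Set beside each other, Cyp2a4 and Cyp2a5 differed in how far they moved. The Cyp2a4 difference was 5.74 in the animal where it was smallest, and the largest of the 15 Cyp2a5 differences, from 5 probes in 3 animals, was 2.16 (ILMN_2734598, animal 1293). This gap was not tested. In adjacent liver no array had the Cyp2a4 probe above background, and all 3 had all 5 Cyp2a5 probes above it.

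Cyp2a12 encodes an enzyme that hydroxylates steroids and bile acids, and it was the only one of the 6 genes to read lower. Its probe read 12.65, 13.21 and 12.21 in tumours of animals 1293, 1309 and 1316, against 13.61, 13.38 and 12.91 in adjacent liver. Each tumour was below its own adjacent liver, by 0.96, 0.17 and 0.70, but the groups overlap, since the tumour of 1309 lay above the adjacent liver of 1316. The log2 difference of −0.61 (SE 0.24) did not pass (adjusted p = 0.238, limma). With the animal as a block it was at adjusted p = 0.0525. Without the tumour of 1309 it was −0.87 and passed (adjusted p = 0.0320).

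Cyp2b10, the hallmark target of CAR, rose in all 3 tumours. Its brighter probe, ILMN_2594926, read 12.01, 12.08 and 12.66 in tumours of animals 1293, 1309 and 1316, against 8.77, 8.09 and 8.11 in adjacent liver. The raw signals were 3737, 4706 and 7325 in tumours and 430.9, 326.9 and 348.5 in adjacent liver, so the gene was above background in both tissues and the groups were far apart. The log2 difference was 3.93 (SE 0.21, adjusted p = 7.24e-07, limma), or 15.2-fold, the 23rd highest of all probes. It was 3.25 in animal 1293, 3.99 in 1309 and 4.55 in 1316, and it passed under all 16 alternatives that fit single probes. The second probe, ILMN_1215955, was dim: 6.91, 7.05 and 7.31 in tumours and 6.24, 6.61 and 6.35 in adjacent liver, where it was below background on all arrays. It was at least 1.14-fold higher in tumours, with a fitted difference of 0.69 (SE 0.15, adjusted p = 0.0239). The dim probe was not called without the tumour of 1316 (adjusted p = 0.0921), the adjacent liver of 1293 (adjusted p = 0.0833) or that of 1316 (adjusted p = 0.0965). With the 2 probes averaged, the Cyp2b10 difference was 2.31 and also passed.

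Cyp2b13, a female-specific gene in mouse liver, was dim on its single probe. It read 7.34, 6.71 and 7.59 in tumours of animals 1293, 1309 and 1316, above background on 2 arrays, against 6.45, 6.42 and 6.35 in adjacent liver, below background on all 3. All tumours lay above all adjacent livers, and the tumour of 1309 exceeded the nearest adjacent liver by far less than the other 2 did. The probe passed (adjusted p = 0.0410, limma), with a fitted difference of 0.81 (SE 0.19) that gives no reliable fold because both ends lie near background. The call depended on single arrays: it was lost without the tumour of 1293 (adjusted p = 0.174), the tumour of 1316 (adjusted p = 0.138) or the adjacent liver of 1293 (adjusted p = 0.0860), 1309 (adjusted p = 0.120) or 1316 (adjusted p = 0.141), and it was kept without the tumour of 1309.

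Cyp2b9 is likewise female-biased and nearly identical to Cyp2b13 in its promoter window. It read 7.88, 7.35 and 7.31 in tumours of animals 1293, 1309 and 1316, against 6.96, 6.93 and 7.17 in adjacent liver. It was above background on all 6 arrays, in raw units 240.2 to 280.7 in tumours and 176.9 to 214.1 in adjacent liver. Each tumour was higher than all adjacent livers, by as little as 0.14 for the tumour of 1316 against its own adjacent liver. The difference of 0.50 (SE 0.16) did not pass (adjusted p = 0.149, limma; 0.122 with the animal as a block). Cyp2b9 and Cyp2b13 ordered the tumours differently: the tumour of 1316 was the lowest for Cyp2b9 and the highest for Cyp2b13.

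**Figure D2:**
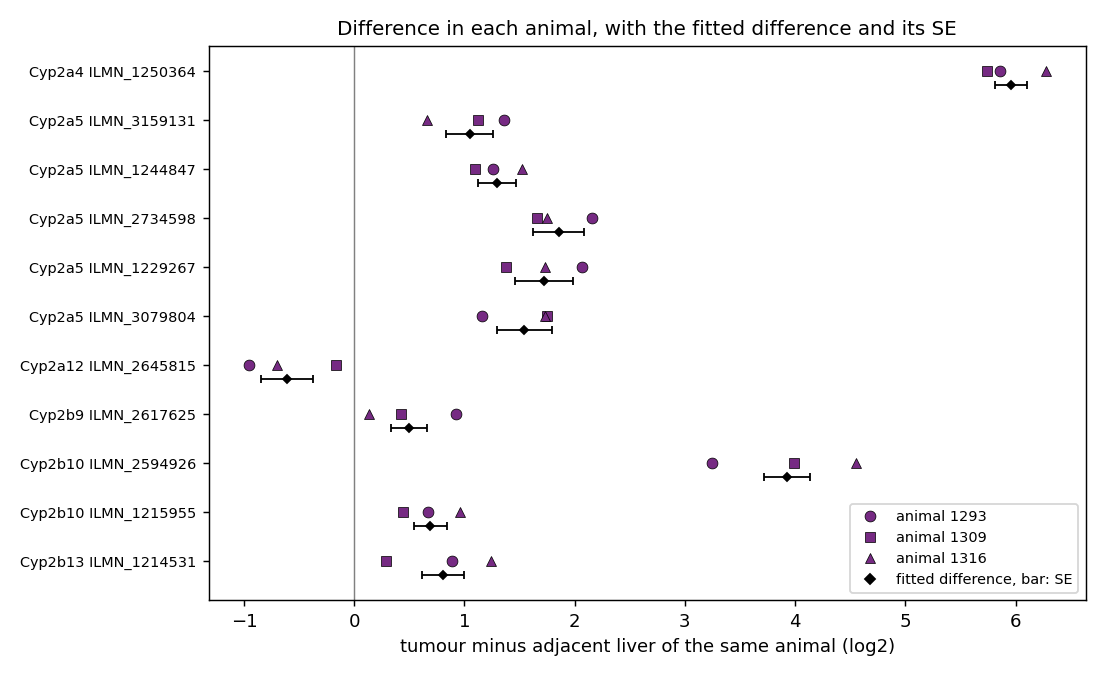
Tumour minus adjacent liver of the same animal (log2, horizontal axis) for each of the 11 probes, with a purple symbol for each animal and a black diamond with its SE for the fitted difference. Cyp2a4 lies near 6 and the brighter Cyp2b10 probe near 4 in all 3 animals, the Cyp2a5 probes lie between 0.66 and 2.16, and Cyp2a12 is the only gene below 0.

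Over the 11 probes the animals gave similar pictures. The median difference was 1.26 in animal 1293, 1.12 in 1309 and 1.52 in 1316. In each animal 7 of 11 probes differed by more than 1 log2 unit upward. Of all 19057 genes, each read from its brightest probe, 408, 247 and 631 did so. Probes and genes are unlike units here, and 5 of the 11 probes are assigned to Cyp2a5, so they are not separate observations. No member probe was lower by more than 1 unit in any animal. The tumour of 1316 was the highest of the 3 tumours on 9 of the 11 probes, the exceptions being Cyp2a12 and Cyp2b9. Without both arrays of animal 1316, whose labels conflict, 7 of the 11 probes were called higher, with differences of 5.80 for Cyp2a4, 3.62 for the brighter Cyp2b10 probe and 1.24 for the Cyp2a5 probe ILMN_3159131.

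In order of position along the chromosome, Cyp2b10 (25897658 to 25926624) is followed by Cyp2b13 (26061388 to 26096197), Cyp2b9 (26173350 to 26210661), Cyp2a4 (26307192 to 26315088), Cyp2b23 (26665227 to 26686430), Cyp2b19, Cyp2g1, Cyp2a5 (26835339 to 26843264) and Cyp2a12 (27029090 to 27036818). Of 21 measured neighbours, which are other Cyp2 genes and flanking genes from a list, 3 were higher and 0 were lower, with a median of −0.04 against −0.01 over all genes, and 1 was lower under the block. Over all genes read from their brightest probe, 3.64% were called higher and 1.56% lower. Of the 3 called neighbours, the widest difference was that of Cyp2b23, a further Cyp2b gene between Cyp2a4 and Cyp2a5. It read 9.71, 9.68 and 10.30 in tumours of animals 1293, 1309 and 1316, against 7.04, 6.57 and 6.21 in adjacent liver, above background on 1 of 3 adjacent arrays, a difference of 3.29 (SE 0.22, adjusted p = 3.92e-06, limma). A second Cyp2b23 probe stayed below background everywhere. The promoter window of Cyp2b10 was 62.3% identical to that of Cyp2b23, and 68.8% identical to that of Cyp2b9 and of Cyp2b13. Cyp2f2, which activates naphthalene, read 0.95 lower without passing (adjusted p = 0.0506), and Cyp2b19 (−0.07), Cyp2g1 (−0.38) and Cyp2t4 (0.03) did not pass. Coq8b rose by 0.70 (SE 0.13) and Itpkc by 0.56 (SE 0.13), calls that were lost without both arrays of animal 1316 (adjusted p = 0.101 and 0.288).

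**Figure D3:**
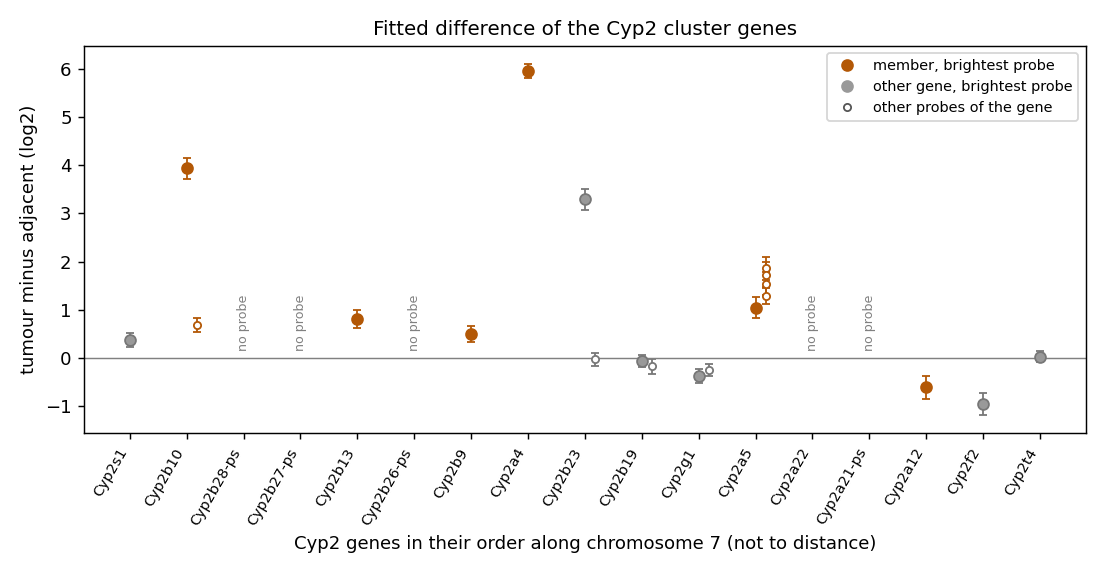
Fitted tumour minus adjacent difference (log2, vertical axis, bars are SE) for the Cyp2 genes in their order along chromosome 7, with members in orange, other genes in grey and further probes of a gene as open circles. Cyp2b10, Cyp2a4 and Cyp2b23 stand above 3; Cyp2b13 (0.81) and Cyp2b9 (0.50) lie between Cyp2b10 and Cyp2a4, and Cyp2b23 is next to Cyp2a4.

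Nr1i3, the gene of CAR, read lower in tumours while Cyp2b10 rose. The brightest Nr1i3 probe read 9.04, 10.30 and 6.59 in tumours of animals 1293, 1309 and 1316, against 10.81, 11.23 and 11.33 in adjacent liver. Every tumour was below every adjacent liver, and the tumour of 1316 was below background. The log2 difference of −2.48 (SE 0.65) did not pass without a block (adjusted p = 0.0615, limma) and passed with the animal as a block (adjusted p = 0.0158). Another bright Nr1i3 probe passed at −2.34 (SE 0.56, adjusted p = 0.0434), the third bright probe read −2.35 (adjusted p = 0.0526), and the remaining 2 were below background on 5 and 6 arrays. Without both arrays of animal 1316 the difference of the brightest probe was −1.35 (adjusted p = 0.0899). The tumour with the lowest Nr1i3 signal, that of 1316, had the highest Cyp2b10, Cyp2a4 and Cyp2a5 signals. The remaining tumours did not keep this reverse order throughout. That of 1309 had more Nr1i3 than that of 1293, and also more Cyp2b10 (12.08 against 12.01) and Cyp2a5, but less Cyp2a4 (12.21 against 12.27). A relation between these genes was not tested.

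**Figure D4:**
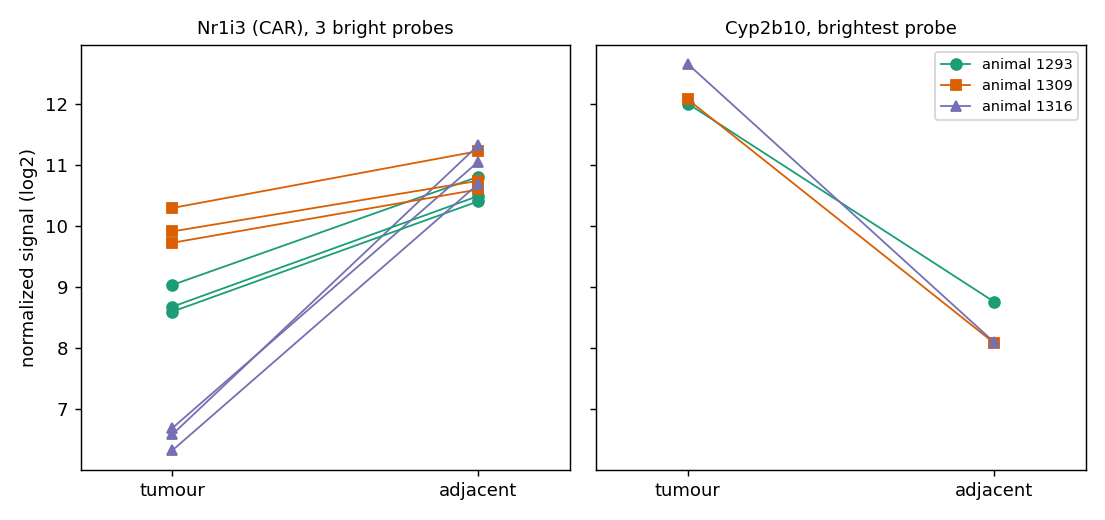
Normalized signal (log2, vertical axis) in tumour and adjacent liver, joined by a line for each animal and probe, for the 3 bright probes of Nr1i3 on the left and the brighter Cyp2b10 probe on the right. Nr1i3 is lower in all tumours, most in animal 1316, and Cyp2b10 is higher in all tumours, most in animal 1316.

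Among 13 measured regulators of Cyp2b genes, 1 was higher and 0 were lower, with 1 lower under the block. Ppargc1a, a coactivator of nuclear receptors, rose by 2.08 (SE 0.18) on 1 probe, the second staying below background throughout. Nr1i2, the related receptor PXR, read 9.70 ± 0.27 in tumours and 9.71 ± 0.09 in adjacent liver (SD, n = 3 each) and did not pass (adjusted p = 0.992). Of 29 other genes known to respond to CAR, 3 were higher and 4 were lower, with a median of −0.34. Gsta2, a glutathione transferase gene, rose by 3.13 (SE 0.27), Gsta1 by 2.70 (SE 0.26) and Abcc4, whose product exports conjugates from the cell, by 2.52 (SE 0.17). All 3 are also on the list of NRF2 targets below, so no CAR target outside that list was called higher. Sult1d1, a sulfotransferase gene, fell by 1.01 (SE 0.24), the uptake carrier gene Slco1a4 by 0.83 (SE 0.18), the pump gene Abcc3 by 0.72 (SE 0.16) and Gstt1 by 0.70 (SE 0.17). Second probes of Sult1d1 and Slco1a4 were below background on 5 and 6 arrays. All 4 calls were lost without both arrays of animal 1316 (adjusted p = 0.262 for Sult1d1, 0.286 for Slco1a4, 0.273 for Abcc3 and 0.412 for Gstt1), and they passed under 4, 7, 7 and 5 of 17 alternatives in that order. With the animal as a block 4 were higher and 9 lower.

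Other P450 genes that CAR is known to induce read the opposite way to Cyp2b10, though not past the test. Cyp2c29, Cyp2c37, Cyp2c50, Cyp2c54, Cyp3a11, Cyp1a2 and the glucuronosyltransferase gene Ugt1a1, singled out after their values were seen, had fitted differences between −2.62 and −1.95 with adjusted p between 0.0665 and 0.293 (limma). With the block 4 of these 7 passed. They were lower by 3.69 to 6.38 in animal 1316, by 1.03 to 2.08 in 1293 and by 0.29 to 0.76 in 1309. In those animals the brighter Cyp2b10 probe was higher by 4.55, 3.25 and 3.99, so animal 1316 had the widest differences in both directions.

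The sex-biased genes bear on Cyp2a4, Cyp2b9 and Cyp2b13, which are low in male liver. The labels used here give no sex. Eif2s3y, a Y-linked gene, averaged 9.87 ± 0.12 in tumours and 10.06 ± 0.06 in adjacent liver (SD, n = 3 each), and all Xist probes were below background on all 6 arrays. The Eif2s3y probe ran from 9.80 to 10.11 over the 6 arrays, while a second, dimmer probe of the gene was below background on all of them. All tumours and adjacent livers thus carried Y-linked RNA without Xist signal, the pattern of male tissue. None of the sex chromosome genes was called. Of 24 other female-biased genes 4 rose and 0 fell: Cyp17a1 of steroid synthesis by 4.91 (SE 0.39), the neurotrophin receptor gene Ntrk2 by 4.06 (SE 0.26), Lpl, lipoprotein lipase, by 3.15 (SE 0.36), and Vldlr, which was at least 2.68-fold higher. The list's median was −0.04, and 9 of the 24 were above background on at least 3 arrays. Further probes above background in tumours were also higher, at 1.22 and 1.39 for Vldlr and 0.93 for Ntrk2, and the remaining probes of Ntrk2, Lpl and Vldlr were below background on all arrays. With the block 5 rose and 1 fell. Of 30 male-biased genes 3 fell and 1 rose, with a median of −0.59; with the block 14 fell. Those called were Susd4 at −1.66 (SE 0.38), Sult5a1 at −0.82 (SE 0.20), Cyp2u1 at −0.61 (SE 0.12, its other probes being below background on all arrays) and Gstp2, a glutathione transferase with a near-identical relative, at 5.74 (SE 0.25). Without both arrays of animal 1316 the calls of Susd4 (adjusted p = 0.0797), Sult5a1 (adjusted p = 0.339) and Cyp2u1 (adjusted p = 0.116) were lost. In tumours the Cyp2u1 and Sult5a1 probes were above background on 1 of 3 arrays and the Susd4 probe on 2. The sizes of these falls thus rest on tumour signals at or near background. None of 16 genes of growth hormone signalling was called (median −0.15; 1 lower with the block), Bcl6 reading 0.42 lower (SE 0.69), and Stat5b and Cux2 were below background on all arrays.

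**Figure D5:**
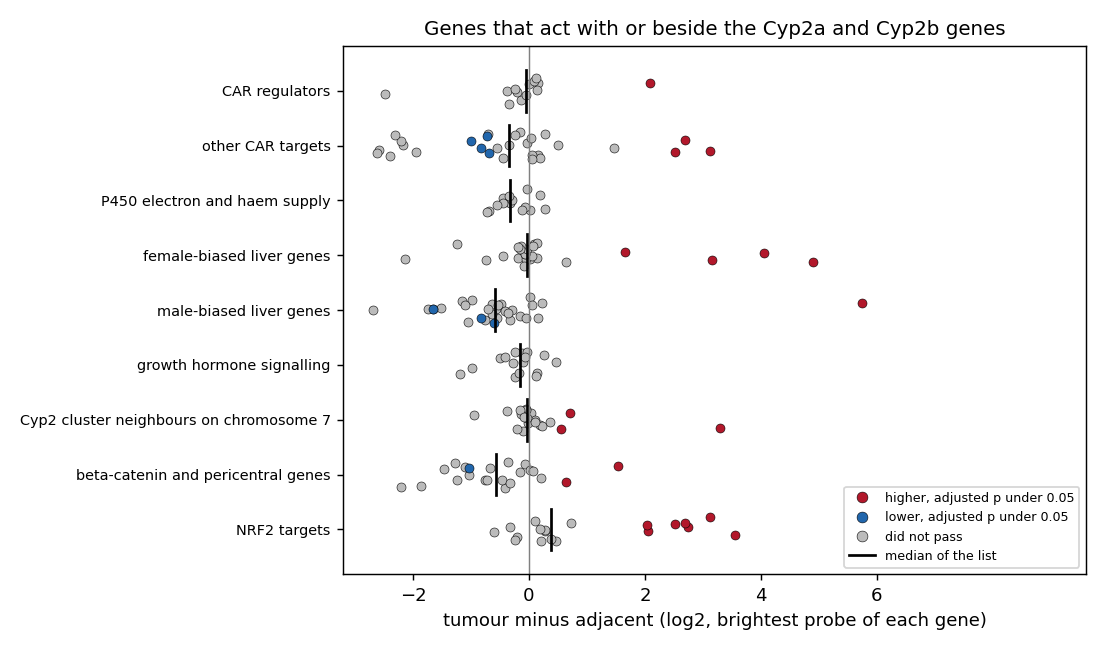
Tumour minus adjacent difference (log2, horizontal axis) of every measured gene in 9 lists of genes that act with or lie beside the Cyp2a and Cyp2b genes, red where called higher, blue where called lower and grey where not called, with a black line at each list's median. Called increases among other CAR targets, female-biased genes and NRF2 targets stand apart from the medians of these lists, between −0.34 and 0.38. Over all 9 lists the medians ran from −0.59 to 0.38. Called increases also stood in other lists, such as Gstp2 (5.74) among male-biased genes. Gsta1, Gsta2 and Abcc4 are drawn both as CAR targets and as NRF2 targets.

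Of 19 measured NRF2 targets 7 rose and 0 fell, with a median of 0.38, and 8 rose and 1 fell with the block. Those that rose included Cbr3, a carbonyl reductase gene, at 3.55 (SE 0.20) and Srxn1, which repairs peroxiredoxins, at 2.75 (SE 0.17). Gsta1, Gsta2 and Abcc4, already counted among the other CAR targets, are also among these 7. Genes around the central vein, where Cyp2a5 is known to be strongest, moved otherwise: of 22 measured 2 rose (Car2 by 1.54 on 1 probe, the other being below background, and Oat by 0.63) and 1 fell (Rgn by 1.03), with a median of −0.57, and 7 fell with the block. The calls of Oat (adjusted p = 0.317) and Rgn (adjusted p = 0.0787) were lost without both arrays of animal 1316. The Rgn probe was above background in 2 of 3 tumours. Of 15 genes that feed electrons or haem to P450 enzymes none was called (median −0.34; 3 lower with the block), and Por, the P450 reductase gene, was not analysed here. Alas1, the first enzyme of haem synthesis, read 0.19 higher in tumours (adjusted p = 0.774).

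For each member above background on at least 3 arrays, the 3 genes of most similar pattern were taken by Pearson r over the 6 arrays. The arrays share the 2 tissues and 3 animals, so r is a description. Cyp2b10 was nearest to Oxct1, an enzyme of ketone body use (r = 0.999), Abcc4 (r = 0.999) and Cyp2b23 (r = 0.997), out of 228 candidates with at least 50% of its SD. Cyp2a4 was nearest to Wfdc12 (r = 0.999), Wfdc15b (r = 0.998) and the protease gene Htra1 (r = 0.997), out of 69 candidates. Cyp2a5 was nearest to Gramd1b (r = 0.979), Ier3 (r = 0.978) and Esm1 (r = 0.965), Cyp2a12 to Tram1 (r = 0.996), Slc22a28 (r = 0.987) and Urad (r = 0.986), and Cyp2b9 to Asf1b (r = 0.993), Ubd (r = 0.983) and Osbpl11 (r = 0.975).

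Marker lists were read for other cell types the pieces could hold. Summed linear signals of 9 hepatocyte markers were 218972 to 243904 in tumours and 228165 to 239376 in adjacent liver, with 1 marker higher (Cps1) and 1 lower (Alb, by 0.84, on a probe above background in 2 of 3 tumours). Of 8 stellate and fibroblast markers 2 were lower (Dcn and Reln), with sums of 4620 to 7888 in tumours and 8821 to 10964 in adjacent liver. Of 8 macrophage markers none was called, with sums of 1468 to 4547 in tumours and 3889 to 5713 in adjacent liver. None of the cholangiocyte, endothelial, lymphocyte and erythroid markers was called without a block. With the block 1 endothelial and 1 stellate or fibroblast marker were higher. The part of these shifts in the P450 differences was not tested.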

How the data were processed

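RNA of 3 liver tumours and the 3 adjacent livers was hybridised to Illumina bead arrays, with a biotin label per the labels. One deposited table gives intensities on a linear scale for each array, whose values show no background subtraction and no normalization between arrays. The deposited log2 table differs by at most 0.00504 from the log2 of quantile-normalized intensities. The submitters' processing notes name GenomeStudio without role or version. Array medians lay between 138.4 and 160.5 raw units, and 30.1% to 32.2% of probes were above background. With 3 arrays per group, the number of arrays limits the precision.

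Intensities were background-corrected (normexp, offset 50), quantile-normalized and log2-transformed (limma 3.58.1, R 4.3.3). Background was the mode of log2 raw signals plus 3 SDs, the SD coming from signals dimmer than the mode, 168.7 to 189.7 raw units. All 45281 probes were fitted with lmFit and eBayes, with Benjamini-Hochberg adjustment and a threshold of 0.05. A gene in a list was read from its probe of highest mean signal. The platform annotation gives 34885 probes 1 symbol and 18 several, and leaves 10378 unnamed. Tumour and adjacent liver pair by animal through the titles. Deviations of the pairs correlated at 0.41, 0.25 and 0.09 for 1293, 1309 and 1316. Tumours set against the adjacent liver of another animal gave −0.27 to 0.03, so the value of 1316 lay nearest to those of mismatched pairs. The fit has no block. The blocked value (its random form through statmod 1.5.0) appears where it changes the count of a list and for some of the calls that it changes. Genes named were the members, up to 4 called genes per list in its main direction and up to 2 in the other, main regulators and sex chromosome genes; Gsta1, the Cyp2c, Cyp3a11, Cyp1a2 and Ugt1a1 group, Cyp2 neighbours, Alas1 and markers were named after their values were seen. Members and lists were chosen with earlier results of these data known. The fit was tested on simulated data whose noise was independent between arrays, with no animal effect, so that test does not cover the pairing. P-values of the main fit set each difference against the spread between the 3 arrays of a group, without the pairing.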

Additional observations from a re-analysis of the deposited data

How the results depend on the processing

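Cyp2a4 passed under all 17 alternatives, between 5.17 and 6.67 log2 units. The brighter Cyp2b10 probe passed under all 16 that fit single probes, between 3.62 and 4.15. Averaged with the dim probe, Cyp2b10 passed at 2.31. With a replicate block for the animal, fixed or random, 9 member probes were called higher and 0 lower, and no member's call changed; over all 45281 probes the fixed block moved the count lower to 1021, against 520 without it. The other alternatives called 6 to 9 member probes higher and 0 lower, except that 1 was lower without the tumour of 1309. Leaving out single arrays gave 0 to 1 member probes lower.

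Without background correction the Cyp2a5 probe ILMN_3159131 (1.04), the dim Cyp2b10 probe (0.43) and Cyp2b13 (0.52) did not pass, and the deposited log2 table gave 1.04, 0.43 and 0.52. With an offset of 16, ILMN_3159131 (1.05) and Cyp2b13 (1.15) did not pass. Cyp2b13 also missed with median scaling (0.87), cyclic loess (0.82) and probes of a gene averaged (0.81). The Cyp2a5 probe ILMN_1229267 missed with trend and robust eBayes (1.72). Without both arrays of animal 1316 the dim Cyp2b10 probe (0.56) and Cyp2b13 (0.59) did not pass. Leaving out 1 array at a time gave 0.81 to 1.32 for ILMN_3159131, −0.87 to −0.37 for Cyp2a12, 0.58 to 0.80 for the dim Cyp2b10 probe and 0.62 to 1.06 for Cyp2b13. The cause of these changes was not tested.

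Differences near 0 changed sign: Nr1i2 read 0.13 with median scaling and −0.15 to 0.12 without 1 array, Cux2 0.048 with probes averaged and −0.14 to 0.044, Bcl6 −1.25 to 0.36, Xist −0.046 with probes averaged and −0.063 to 0.18, and Kdm5d −0.22 to 0.013. Over all probes, 1040 were called higher, against 677 with an offset of 16, 495 without animal 1316 and 572 to 1402 without 1 array; 520 were called lower, against 247 without background correction, 110 with an offset of 16, 227 with median scaling, 244 in the deposited table, 324 among probes above background on at least 3 arrays, 105 without animal 1316 and 102 to 1101 without 1 array. Counts of genes called lower in a list moved most: 0 to 14 male-biased genes, 0 to 10 other CAR targets, 0 to 8 pericentral genes and 0 to 3 P450 supply genes, while NRF2 targets called higher stayed at 6 to 8 and female-biased genes at 4 to 5. Slide was not run as a block because the sources used here give none. Signals near background limit Cyp2b13, Cyp2b9 and the dim Cyp2b10 probe.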
